A study of Homo sapiens with 6 samples.

Results

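The 36 genes described here encode the enzymes and membrane carriers of glycolysis, the pentose phosphate pathway and the glycerol-3-phosphate branch, with the enzymes that control entry of sugar and exit of pyruvate. The rule listed them by pathway and used no measured value, but the list was chosen with earlier results of these data known. GPI and PKM were already among the genes the study reported as differentially expressed in these data. All 36 were found among the 48162 gene rows of the count table. SiHa is a human cervical carcinoma cell line. RNA-seq was available from 3 SiHa samples transfected with an siRNA against CNN3, the actin-binding protein calponin 3 (si-CNN3), and from 3 samples transfected with a control siRNA (si-NC). The cells were harvested 48 h after transfection. The labels put the change of medium at 24 h, while the study's methods give an earlier time for siRNA. The comparison asked which transcripts differ when CNN3 is reduced. Every sample was the same cell line without any other labelled alteration, and a single siRNA against CNN3 was sequenced, so loss of CNN3 and other effects of that siRNA cannot be told apart. The study's methods describe the 3 samples of a group as independent assays, which the labels do not state.

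Glycolysis splits 1 glucose into pyruvate in the cytosol and gains ATP and NADH on the way. Many carcinoma lines turn most of that pyruvate into lactate and export it, which restores NAD+ for the next round. The pentose phosphate pathway leaves glycolysis at glucose-6-phosphate and returns sugars to it, and it provides NADPH and ribose for nucleotides. Glycerol-3-phosphate dehydrogenases take dihydroxyacetone phosphate out of glycolysis. Their product is the backbone of membrane lipids, and the cytosolic and mitochondrial enzymes together carry electrons from NADH to the respiratory chain.

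The siRNAs are shown because a guide strand can also act through its seed (bases 2 to 8) on other transcripts. The sense strands are as labelled, without the overhang, and the guides were taken as their reverse complements, with the seed in capitals.
si-CNN3#1 sense: gcagaugggaaccaacaaa
si-CNN3#1 guide: uUUGUUGGuucccaucugc
si-NC sense: uucuccgaacgugucacgu
si-NC guide: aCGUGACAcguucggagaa

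Letters matching the si-CNN3#1 seed (CCAACAA) stood in the longest coding transcript of 2 of the 11 members that were lower with si-CNN3 and of 6 of the 24 tested members that did not pass the threshold, against 24.3% of 12696 tested genes. GPI-202 held the match in its coding sequence at positions 382 to 388 of the transcript, and PGM1-201 held it in the 3′ UTR at positions 2536 to 2542. They are printed with 10 bases on either side and the matched letters in capitals.
GPI-202: ctcttcgatgCCAACAAggaccgcttc
PGM1-201: tacatgtaacCCAACAAaatgcaattt
The 6 others were GPD2, HK1, PDK1, PFKM, PFKP and PGK1. GPD1L, the member with the largest fall, held no such match in its longest coding transcript. Letters matching the si-NC seed stood in 0 of the 11 and in 3 of the 24 (PDHA1, PDK1 and PFKFB4), against 7.16% of tested genes. A match is a description of letters and says nothing about binding.

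The counts of CNN3 itself, the targeted gene, were 1134, 1288 and 1234 in the controls and dropped to 490, 514 and 574 with si-CNN3, without overlap. Its normalized CPM (CPM after TMM scaling of the library sizes) was 50.9% of the si-NC mean, a log2 fold change of -0.97 (SE 0.06, edgeR adjusted p = 2.04e-20). Total counts were 18147028 to 19026341 with si-CNN3 and 20287139 to 24976517 with si-NC, without overlap, and the share of counts on mitochondrially encoded genes was 2.99% to 3.08% against 3.10% to 3.23%. The part of the RNA composition in the results below was not tested. Thinning every sample to the smallest total evens the depth and leaves the composition as it was. After thinning 10 members passed the threshold, all lower, and 12.3% of 15799 genes passed in either direction. The 7 markers listed for the epithelial carcinoma line were KRT7, KRT8, KRT18, KRT19, EPCAM, CDH1 and CDKN2A. All 7 had 10 or more counts, with a summed FPKM of 1792 to 1826 and 1814 to 1835. Over all samples KRT7 (786.9 to 861.9 FPKM), KRT8 (450.9 to 544.5) and CDKN2A (336.7 to 363.6) were highest. EPCAM (4.896 to 6.747) and KRT19 (6.113 to 7.337) were low. Fibroblast markers summed to 8.91 to 9.44 and 8.58 to 9.49 FPKM and leukocyte markers to 1.22 to 1.87 and 1.34 to 2.75, with both groups overlapping, endothelial markers had under 10 counts in every sample, and of the 3 adipocyte markers ADIPOQ and FABP4 were at 0 in every sample, while PLIN1 had 33 to 70 counts. The adipocyte markers summed to 0.929 to 1.20 and 0.856 to 1.49 FPKM.

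With si-CNN3, 11 of the 35 members tested fell and 0 rose (edgeR quasi-likelihood test, Benjamini-Hochberg adjusted over 15860 genes, threshold 0.05). Of all genes tested, 13.3% passed in either direction, 7.14% lower and 6.17% higher. The members' share that fell was 31.4%. At an unadjusted edgeR p under 0.05 there were 18 members, all lower, where 3978 of all 15860 genes were under it in either direction. DESeq2 gave 34 members an adjusted p and called 10 lower and 0 higher. It called 8.94% of 12155 genes in either direction. Of the 35 members, 31 had a log2 fold change below 0 and 4 above (LDHB and PDHA1 turned above 0 with total counts as the scaling), with a median of -0.07 against 0.00 for all genes. The 11 were GPI, PFKL and ALDOC of upper glycolysis, GAPDH and PKM of lower glycolysis, LDHA, SLC16A1 and SLC16A3 of lactate formation and export, the regulator PFKFB3, PGM1 of the glycogen branch and GPD1L of the glycerol-3-phosphate branch. Except for GPD1L, these were small falls, to between 83.4% and 94.8% of the si-NC mean. The 2 groups did not overlap in normalized CPM for 17 of the 35 members (48.6%), against 28.2% of all genes tested. SLC2A3 had 1 to 6 counts in each sample and was not tested. In these bulk samples, less RNA per cell and fewer cells expressing a gene cannot be told apart.

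**Figure D1:**
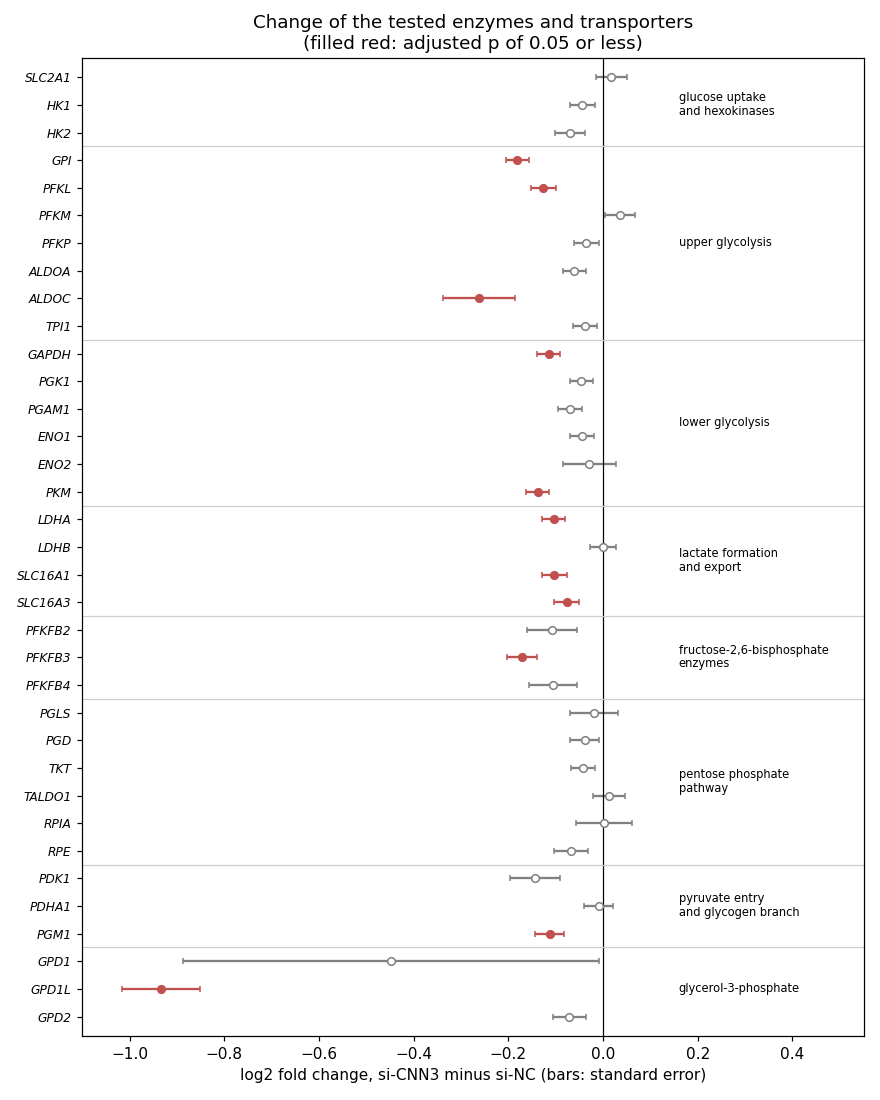
Log2 fold change (si-CNN3 minus si-NC, horizontal axis) of the 35 tested members in pathway order, with bars of 1 standard error; filled red points passed the adjusted p threshold of 0.05. The 11 filled points all lie left of 0, and GPD1L at -0.93 lies farthest from it among them.

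**Figure D2:**
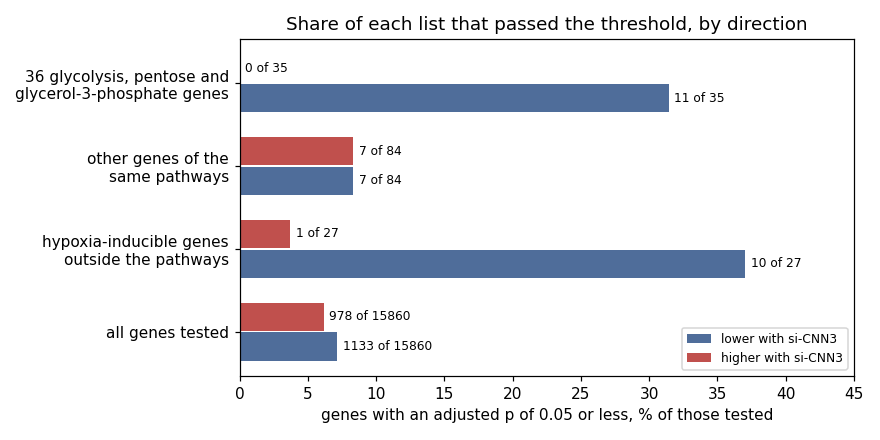
Percentage of tested genes that passed the threshold (horizontal axis), lower in blue and higher in red. Bars are given for the 36 genes, other genes of the same pathways, a hypoxia list and all genes. The hypoxia list holds hypoxia-inducible genes and also HIF1A, EPAS1 and ARNT. Of the 36 genes 11 were lower and 0 higher, while the other genes of the pathways were 7 lower and 7 higher.

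Levels between genes were compared as deposited FPKM, which is counts per length and per total. The members ranged from PKM at 2334 ± 47.3 FPKM (SD, n = 3) and ENO1 at 2257 ± 56.3 in si-NC cells to SLC2A3 at 0.112 ± 0.0707. ENO1 (2257), LDHA (1781) and GAPDH (1708) followed PKM, and then PGK1 (896), TPI1 (803), ALDOA (737), GPI (713), PGAM1 (585) and LDHB (529). Together the 36 genes made up 2.05%, 2.02% and 2.06% of all FPKM in the 3 si-NC samples and 1.97%, 1.92% and 1.98% in the 3 si-CNN3 samples. The highest si-CNN3 share was below the lowest si-NC share, and the 6 enzymes of lower glycolysis held most of it, with 1.06% ± 0.0104 and 1.01% ± 0.0216. The replicates of the members lay close together. Their coefficient of variation in normalized CPM had a median of 2.52% with si-CNN3 and 2.27% with si-NC over 34 members. SLC2A3 and GPD1, which had few counts, were left out, and GPD1 had 67.8% and 17.7%. The medians over all genes tested, those with few counts included, were 5.21% and 4.64%. Differences of under 10% could thus pass the test for members. The part of this smaller spread in the share of members that passed was not tested.

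**Figure D3:**
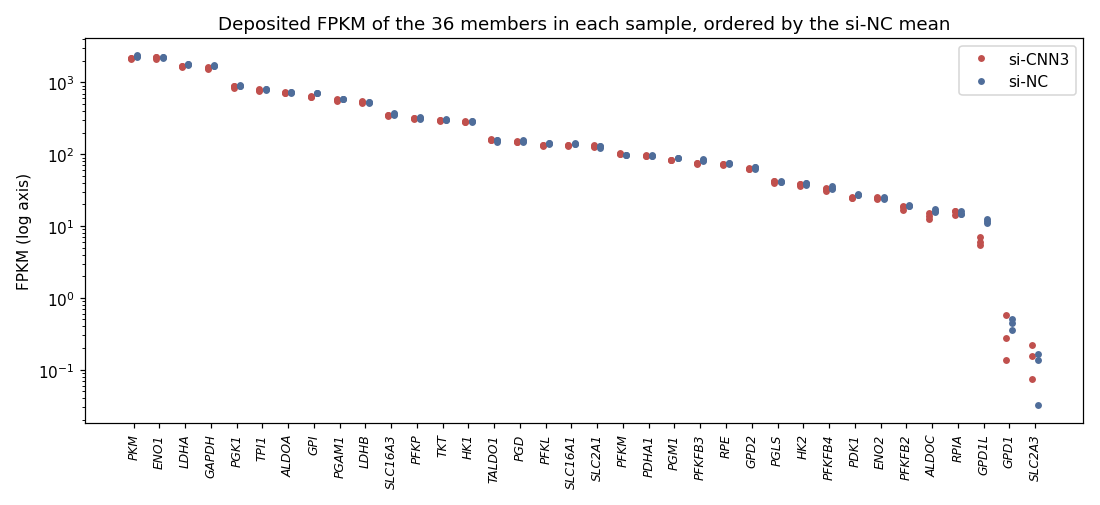
Deposited FPKM (vertical log axis) of the 36 genes in each of the 6 samples, ordered by the si-NC mean; red points are si-CNN3 and blue points si-NC. The order runs from PKM at 2334 to SLC2A3 at 0.112 in si-NC cells, and GPD1L is the gene above 1 FPKM whose groups are visibly apart.

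GPD1L encodes a cytosolic protein related to glycerol-3-phosphate dehydrogenase 1. It lies on chromosome 3 at 32105689 to 32168713 (GRCh38, plus strand). The si-CNN3 samples held 163, 182 and 201 of its counts and the si-NC samples 349, 462 and 422, which is 8.65, 9.48 and 11.01 normalized CPM against 17.4, 18.6 and 19.6. The highest si-CNN3 sample stayed well below the lowest si-NC sample. The level was 52.5% of the si-NC mean, with a log2 fold change of -0.93 (SE 0.08, adjusted p = 3.68e-13). It was the only member to fall by more than 0.5 on the log2 scale, and over 17 alternative settings its change ranged from -1.03 to -0.82 and passed the threshold in all of them. GPD2, the mitochondrial glycerol-3-phosphate dehydrogenase, had 102.6, 104.6 and 99.96 normalized CPM against 103.5, 108.6 and 110.4, with overlapping groups and a log2 fold change of -0.07 (SE 0.03, adjusted p = 0.183). GPD1, the cytosolic glycerol-3-phosphate dehydrogenase 1, had few counts, 3, 6 and 12 against 12, 13 and 9. Its log2 fold change of -0.45 had an SE of 0.44. In si-NC cells it was at 0.439 FPKM, against 11.7 for GPD1L. Of the FPKM of the 3 genes, GPD1L held 8.03% to 10.2% in the si-CNN3 samples and 14.8% to 15.5% in the si-NC samples, and GPD2 nearly all of the rest.

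**Figure D4:**
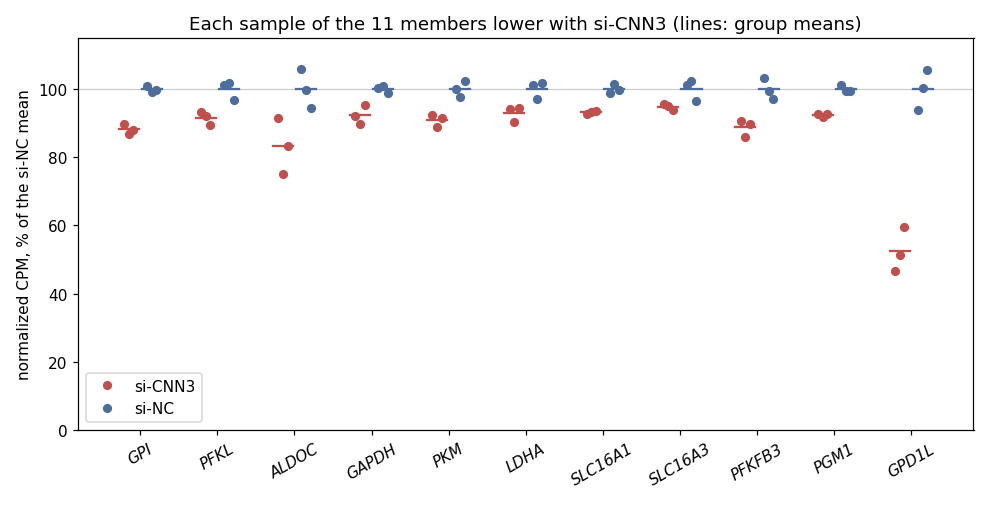
Normalized CPM of the 11 members that fell, as a percentage of the gene's si-NC mean (vertical axis, from 0), in each si-CNN3 (red) and si-NC (blue) sample with lines at the group means. In all 11 genes every red point is below every blue point, and GPD1L, at 52.5%, is farthest from 100.

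The entry of glucose did not differ past the threshold. SLC2A1, the main glucose carrier of these cells with over 99% of the FPKM of the pair SLC2A1 and SLC2A3, had 158, 147 and 153 normalized CPM with si-CNN3 and 156, 145 and 152 with si-NC. Its log2 fold change was 0.02, with an interval of 2 SE from -0.05 to 0.08 (adjusted p = 0.798). HK1, the hexokinase with 88.2% of the FPKM of the 2 hexokinases in si-CNN3 cells, had a log2 fold change of -0.04 (adjusted p = 0.304), and HK2, the inducible hexokinase, one of -0.07 (adjusted p = 0.141). The groups of all 3 genes overlapped.

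In upper glycolysis, GPI, which converts glucose-6-phosphate to fructose-6-phosphate, had 836, 810 and 822 normalized CPM with si-CNN3 and 942, 926 and 932 with si-NC. The groups lay far apart next to their spread, with a log2 fold change of -0.18 (SE 0.02, adjusted p = 6.06e-08) that passed under all 17 alternatives. PFKL, the liver-type subunit of phosphofructokinase, which commits sugar to glycolysis, had 367, 363 and 352 against 399, 400.4 and 381, a log2 fold change of -0.13 (SE 0.03, adjusted p = 0.000395). Its platelet-type partner PFKP, with 57.2% of the FPKM of the 3 subunits in si-NC cells, had a log2 fold change of -0.04 (adjusted p = 0.447). The muscle-type subunit PFKM was 121, 120 and 125 against 119, 119 and 119, the only member whose si-CNN3 samples all lay above the si-NC samples, and it did not pass the threshold (log2 fold change 0.04, SE 0.03, adjusted p = 0.546). Reads of PFKM may be shared with SENP1, which overlaps it on the opposite strand and had up to 35.7% as many counts.

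ALDOC, the minor aldolase with 2.18% of aldolase FPKM in si-NC cells, had 15.8, 12.97 and 14.4 normalized CPM with si-CNN3 and 18.2, 17.2 and 16.3 with si-NC. The nearest samples of the groups were 15.8 and 16.3, and the log2 fold change was -0.26 (SE 0.08, adjusted p = 0.0137). This call was lost without si-CNN3 replicate 2 (-0.19, adjusted p = 0.139) and without si-NC replicate 1 (-0.22, adjusted p = 0.0792). It was lost in 7 of 17 alternatives, among them DESeq2 (adjusted p = 0.133), thinning to the smallest total (0.0604) and all 3 limma fits, and over its alternatives the adjusted p ranged from 0.0039 to 0.187. ALDOA, the main aldolase, which splits fructose-1,6-bisphosphate, had a log2 fold change of -0.06 (SE 0.02, adjusted p = 0.104), and TPI1, which interconverts the resulting triose phosphates, one of -0.04 (SE 0.02, adjusted p = 0.36). Both had overlapping groups.

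In lower glycolysis, GAPDH, which oxidises glyceraldehyde-3-phosphate and makes NADH, had 2025, 1969 and 2093 normalized CPM with si-CNN3 and 2202, 2217 and 2174 with si-NC. All 3 si-CNN3 samples were lower, with a log2 fold change of -0.12 (SE 0.02, adjusted p = 0.000353). GAPDH has 61 rows of pseudogene copies in the table, which together held at most 0.0688% as many counts. PKM, the pyruvate kinase of the last ATP-making step, had 3094, 2972 and 3062 against 3350, 3274 and 3423, a log2 fold change of -0.14 (SE 0.02, adjusted p = 1.39e-05). Gene counts do not separate the M1 and M2 isoforms of PKM.

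The enzymes of the steps between them did not pass the threshold. PGAM1, phosphoglycerate mutase, had 659, 637 and 676 normalized CPM against 699, 681 and 692, so that its groups did not overlap, but its log2 fold change of -0.07 (SE 0.03, adjusted p = 0.053) missed the threshold. It passed in 4 of its 17 alternatives, among them DESeq2 (adjusted p = 0.0478) and without si-CNN3 replicate 3 (adjusted p = 0.0129), with adjusted p from 0.0014 to 0.418. Its copies, PGAM4 the largest, held 1.16% to 1.48% as many counts. PGK1, phosphoglycerate kinase, had a log2 fold change of -0.05 (SE 0.03, adjusted p = 0.254). ENO1, the main enolase with 98.9% of enolase FPKM, had one of -0.04 (SE 0.03, adjusted p = 0.266), and ENO2, the neuronal enolase, one of -0.03 (SE 0.06, adjusted p = 0.811). For these 3 genes the groups overlapped, and the interval of 2 SE ran from -0.10 to 0.00 for PGK1, from -0.10 to 0.01 for ENO1 and from -0.14 to 0.08 for ENO2.

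Lactate formation and export had 3 of its 4 members past the edgeR threshold, where 13.3% of all genes passed, and 2 of the 4 past that of DESeq2. LDHA, the lactate dehydrogenase subunit that favours lactate formation, had 1948, 1867 and 1953 normalized CPM with si-CNN3 and 2091, 2008 and 2103 with si-NC. The groups did not overlap, and the log2 fold change was -0.10 (SE 0.02, adjusted p = 0.00147). LDHB, the other subunit, had 416, 393 and 414 against 419, 395 and 411. Its groups overlapped and its log2 fold change was -0.00, with an interval of 2 SE from -0.05 to 0.05 (adjusted p = 0.999), its sign changing with the scaling. SLC16A1 and SLC16A3, the monocarboxylate carriers MCT1 and MCT4 that move lactate across the membrane, also fell. SLC16A1 had 270.2, 272 and 272 normalized CPM against 288, 296 and 290.4, a log2 fold change of -0.10 (SE 0.03, adjusted p = 0.00448), a call lost in the 3 limma fits (adjusted p up to 0.11).

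SLC16A3 had 433, 430 and 424 normalized CPM against 457, 462 and 437, a log2 fold change of -0.08 (SE 0.03, adjusted p = 0.0397). This call held in 6 of 17 alternatives, with adjusted p from 0.00152 to 0.381. The call was lost with upper quartile scaling, with total counts as the scaling, with DESeq2 (adjusted p = 0.0503) and in every limma fit. It was lost without si-CNN3 replicate 1 (adjusted p = 0.0551), replicate 2 (0.0719) or replicate 3 (0.104), and without si-NC replicate 1 (0.157) or replicate 2 (0.215), and stayed without si-NC replicate 3 (0.0173). CSNK1D overlaps SLC16A3 on the opposite strand and had up to 56.4% as many counts, and whether reads were counted by strand is not given in the sources used here. BSG, basigin, the chaperone of both carriers and not among the 36 genes, was 720 ± 9.48 against 765 ± 20.7 normalized CPM (SD, n = 3), a log2 fold change of -0.09 (SE 0.02, adjusted p = 0.0104).

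The PFKFB enzymes make and break down fructose-2,6-bisphosphate, the strongest activator of phosphofructokinase. PFKFB3, the isoform with mainly kinase activity and 60.7% of the FPKM of the 3, had 150.2, 143 and 149 normalized CPM with si-CNN3 and 171, 165 and 161 with si-NC. All 3 si-CNN3 samples were lower, with a log2 fold change of -0.17 (SE 0.03, adjusted p = 4.25e-05). PFKFB4 had 38.1, 40.6 and 42.5 against 43.3, 45.3 and 41.4, a log2 fold change of -0.11 (SE 0.05, adjusted p = 0.177) with overlapping groups. PFKFB2 had 32.5, 36.1 and 37.5 against 37.5, 38.7 and 37.9, a log2 fold change of -0.11 (SE 0.05, adjusted p = 0.194). Its groups did not overlap, by a margin of 37.46 to 37.48. YOD1 on the opposite strand of PFKFB2 had up to 96.4% as many counts.

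None of the 6 pentose phosphate members passed the threshold, and 0 of them had an unadjusted edgeR p under 0.05. With DESeq2 none of the 6 passed either. Their median log2 fold change was -0.03. In the oxidative steps, PGLS, the lactonase, had a log2 fold change of -0.02 (SE 0.05, adjusted p = 0.862), and PGD, which makes NADPH and ribulose-5-phosphate, one of -0.04 (SE 0.03, adjusted p = 0.486). In the non-oxidative steps, TKT, transketolase, had 600.6, 600.0 and 602 normalized CPM against 617, 610 and 629. Its groups did not overlap, and its log2 fold change was -0.04 (SE 0.02, adjusted p = 0.294). TALDO1, transaldolase, was at 0.01 (SE 0.03, adjusted p = 0.862), and RPIA, which isomerises ribose-5-phosphate, at 0.00 (SE 0.06, adjusted p = 0.993). RPE, the epimerase of ribulose-5-phosphate, had 83.1, 83.1 and 83.5 against 85.8, 88.4 and 87.3 without overlap, and a log2 fold change of -0.07 (SE 0.04, adjusted p = 0.232). RPE shares its locus with KANSL1L on the opposite strand, with up to 35.4% as many counts, and its copies held 0.877% to 1.22%. Across the 6, the intervals of 2 SE lay between -0.14 and 0.12. Whether the pentose phosphate genes changed less than the glycolytic genes was not tested.

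At the branch points, PGM1, which links glucose-6-phosphate to glycogen, had 141, 140.0 and 141 normalized CPM with si-CNN3 and 154, 152 and 152 with si-NC. Each group was tight and the 2 did not overlap, with a log2 fold change of -0.11 (SE 0.03, adjusted p = 0.00653). ITGB3BP on the opposite strand of PGM1 had up to 32.5% as many counts. PDK1, the kinase that shuts off pyruvate dehydrogenase, had 30.3, 30.9 and 30.5 against 34.5, 33.4 and 33.3 without overlap, and its log2 fold change of -0.14 (SE 0.05, adjusted p = 0.0646) missed the threshold. PDHA1, the catalytic subunit that PDK1 phosphorylates, had a log2 fold change of -0.01 (SE 0.03, adjusted p = 0.895) with overlapping groups.

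Ratios between related enzymes within a sample do not depend on the scaling between samples. Of 12 ratios compared, 4 did not overlap between the groups, and all 4 had the smallest p that 3 samples against 3 can give, an exact two-sided permutation p = 0.1 (0.3 adjusted over the 12), so none could pass 0.05. The log2 count ratio of GPD1L to GPD2 was -3.57, -3.46 and -3.18 with si-CNN3 and -2.57, -2.55 and -2.50 with si-NC, lower by 0.86 in the mean. That of LDHB to LDHA was -2.23, -2.25 and -2.24 against -2.32, -2.35 and -2.36, higher by 0.10, and LDHA held 75.8% ± 0.145 of lactate dehydrogenase FPKM against 77.1% ± 0.233 (SD, n = 3). PFKL to PFKP was 0.11, 0.15 and 0.05 against 0.20, 0.20 and 0.18. PFKM to PFKP was -1.49, -1.44 and -1.45 against -1.54, -1.56 and -1.50, which left less than 0.01 between the nearest samples. The other 8 ratios overlapped, among them HK2 to HK1, SLC16A3 to SLC16A1 and ENO2 to ENO1.

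**Figure D5:**
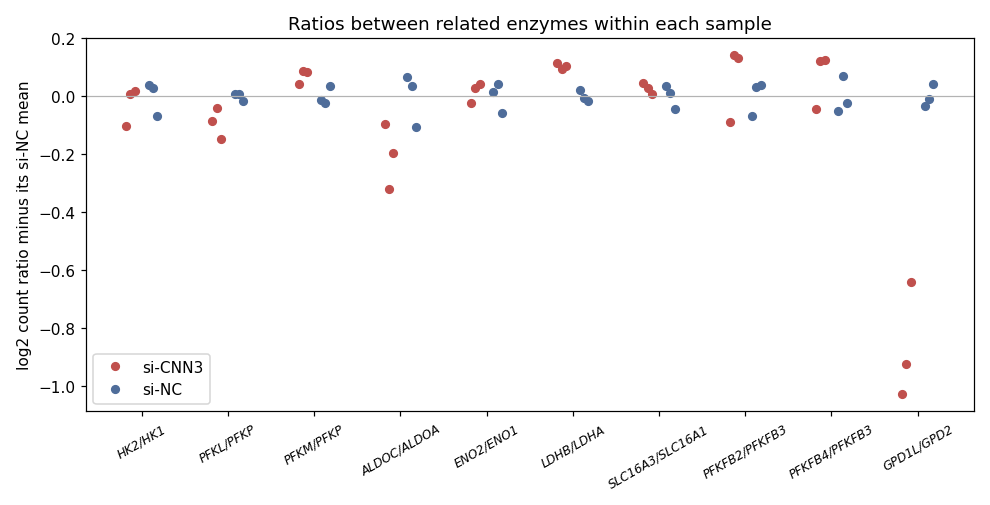
Log2 count ratio of related enzymes minus its si-NC mean (vertical axis) in each si-CNN3 (red) and si-NC (blue) sample, for 10 of the 12 ratios (those with SLC2A3 or GPD1, which have few counts, are left out). GPD1L to GPD2 is lower by 0.86 with si-CNN3, LDHB to LDHA is higher by 0.10, and most other pairs overlap.

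Of 110 other genes of the same pathways 84 were tested and 14 passed (16.7%, against 13.3% of all genes), 7 lower and 7 higher, and their median log2 fold change was 0.00. DESeq2 called 3 lower and 4 higher. These shares lie near those of all genes, and the genes are given for their values. Among 17 further glycolytic genes tested 3 (17.6%) rose and 0 fell, and DESeq2 called 1 higher and 0 lower. ADPGK, the ADP-dependent glucokinase, rose by 0.16 on the log2 scale (SE 0.04, adjusted p = 0.00108), and ENO3, the muscle enolase, by 0.26 (SE 0.07, adjusted p = 0.00988, DESeq2 adjusted p = 0.119). Among 9 transporters and their partners, BSG fell and SLC2A6 rose by 0.15 (SE 0.05, adjusted p = 0.0419, DESeq2 adjusted p = 0.204). Of 9 further pentose phosphate genes, PRPS1, which makes phosphoribosyl pyrophosphate from ribose-5-phosphate, fell by 0.12 (SE 0.03, adjusted p = 0.00721) and the NADPH-using thioredoxin reductase TXNRD1 rose by 0.09 (SE 0.03, adjusted p = 0.0158).

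Around pyruvate, 4 of 13 further genes passed (30.8%, against 13.3% of all genes), and DESeq2 called 1 lower and 1 higher. PDP1, the phosphatase that turns pyruvate dehydrogenase back on, rose by 0.34 (SE 0.05, adjusted p = 5.85e-08), from 41.2 ± 0.601 to 52.3 ± 0.540 normalized CPM (SD, n = 3). PC, pyruvate carboxylase, fell by 0.12 (SE 0.03, adjusted p = 0.000979), PDHX, a subunit of the pyruvate dehydrogenase complex, by 0.16 (SE 0.05, adjusted p = 0.0102), and PDPR, the regulatory subunit of the phosphatase, by 0.11 (SE 0.03, adjusted p = 0.0121). With DESeq2 the adjusted p was 0.0744 for PDHX and 0.0585 for PDPR, so these calls were lost. None of 18 further glycogen genes passed the edgeR threshold, nor that of DESeq2. An unadjusted edgeR p under 0.05 was found for 4 of them and for 3978 of all 15860 genes. Of 18 genes that use glycerol-3-phosphate or shuttle electrons, 3 passed (16.7%). GOT1, the cytosolic aspartate aminotransferase of the malate-aspartate shuttle, rose by 0.16 (SE 0.04, adjusted p = 0.00243), while the acyltransferases AGPAT5 (-0.16, adjusted p = 0.0102) and AGPAT4 (-0.23, adjusted p = 0.0496) of phosphatidic acid synthesis fell. Both falls were lost with DESeq2 (adjusted p = 0.0759 and 0.25), and the groups of AGPAT4 overlapped.

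Many glycolytic genes are textbook targets of hypoxia-inducible factor. A list of 27 other genes was therefore counted in the same fit. It held hypoxia-inducible genes and also HIF1A, EPAS1 and ARNT, which encode subunits of such factors. Of the 27, 10 fell, 1 rose and 16 did not pass. EPAS1 was among those that fell, but its call was lost with DESeq2 (adjusted p = 0.0696). The share lower was 37.0%, against 7.14% of all genes. DESeq2 called 5 lower and 1 higher, and the edgeR median log2 fold change was -0.07. DDIT4, an inhibitor of mTORC1 signalling, fell by 0.33 (SE 0.03, adjusted p = 4.82e-14), BNIP3L, a mitophagy receptor, by 0.21 (SE 0.03, adjusted p = 1.34e-06), and ANGPTL4, an inhibitor of lipoprotein lipase, by 0.32 (SE 0.05, adjusted p = 1.99e-06). ERO1A, the oxidase of protein folding, rose by 0.36 (SE 0.03, adjusted p = 3.2e-12). HIF1A, which encodes the oxygen-regulated subunit of the factor, was at 0.02 (adjusted p = 0.654). Its regulation is mainly at the protein level, which RNA counts do not measure. Whether hypoxia-inducible factor had a part in the falls of this list or of the members was not tested.

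Since several members fell, the 250 bases before the annotated starts of 32 members were read from the RefSeq promoter table (GRCh38.p14) and searched on both strands for the hypoxia response core (ACGTG or GCGTG) and for the E-box CACGTG, which contains that core. The core stood in 9 of 10 members that fell and in 14 of 22 that did not pass, against 64.7% of 10570 tested genes and 43.2% of all 35116 promoters. The E-box stood in 4 of 10 (ALDOC, GAPDH, LDHA and PFKFB3) and in 2 of 22, against 11.2% of tested genes and 6.34% of all promoters. The Sp1 box GGGCGG stood in 9 of 10 and 21 of 22, against 73.9% of tested genes and 42.6% of all promoters. A gene with several starts had several chances to hold a match, and a match is letters only. The promoters of the 2 genes that passed in every setting and those of LDHA and ALDOC, which held 5 cores each when an E-box, read on both strands, counts as 2, are printed 5′ to 3′ on the gene's strand, with the core or E-box in capitals.
GPD1L, chr3:32106370-32106619, plus strand: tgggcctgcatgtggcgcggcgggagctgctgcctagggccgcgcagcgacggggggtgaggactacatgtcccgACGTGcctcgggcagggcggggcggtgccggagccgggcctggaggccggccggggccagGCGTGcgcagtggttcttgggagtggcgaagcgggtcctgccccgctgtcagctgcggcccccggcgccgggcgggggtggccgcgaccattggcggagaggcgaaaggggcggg
GPI, chr19:34364742-34364991, plus strand: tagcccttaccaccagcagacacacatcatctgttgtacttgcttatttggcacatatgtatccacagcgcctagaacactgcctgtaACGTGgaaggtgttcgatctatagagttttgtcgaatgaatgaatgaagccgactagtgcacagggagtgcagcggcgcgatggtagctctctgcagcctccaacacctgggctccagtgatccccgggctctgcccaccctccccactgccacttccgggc
LDHA, chr11:18394313-18394562, plus strand: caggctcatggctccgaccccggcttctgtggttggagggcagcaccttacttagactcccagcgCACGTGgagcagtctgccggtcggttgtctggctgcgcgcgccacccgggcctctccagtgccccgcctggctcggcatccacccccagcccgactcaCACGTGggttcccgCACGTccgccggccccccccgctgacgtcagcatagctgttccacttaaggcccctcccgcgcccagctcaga
ALDOC, chr17:28576896-28577145, minus strand: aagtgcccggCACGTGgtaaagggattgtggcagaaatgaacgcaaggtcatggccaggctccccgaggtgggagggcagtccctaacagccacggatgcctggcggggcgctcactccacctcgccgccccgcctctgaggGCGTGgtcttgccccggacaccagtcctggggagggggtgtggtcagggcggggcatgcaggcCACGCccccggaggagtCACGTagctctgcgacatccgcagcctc
LDHA held 2 E-boxes in this promoter and ALDOC 1, while GPD1L and GPI held none, with 2 cores and 1 core. A promoter of HK2, which did not pass the threshold (edgeR adjusted p = 0.141), held 6 cores and 2 E-boxes, more cores than any printed promoter. Of the 10 members that fell and had a promoter in the table, PKM held no core.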

How the data were processed

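RNA-seq was measured in 6 SiHa samples, 3 per group. Per the submitters' processing notes, reads were aligned with TopHat2 2.0.9 and Bowtie2 2.0.6 and counted with HTSeq, and DESeq 1.10.1 was used. The authors deposited whole-number read counts per gene and FPKM values; the FPKM values equalled counts over length and total in 14803 of 14803 genes with 10 or more counts in every sample (relative tolerance 1e-06). Genome build, annotation, strand setting and the handling of reads with several matches are not given in the sources used here. Names came from GENCODE 29, which named 45342 of 48162 rows.

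The deposited counts were tested with edgeR 4.0.16 in R 4.3.3 (TMM scaling, filterByExpr, condition as the only term, quasi-likelihood F test, Benjamini-Hochberg over 15860 genes), where the study used DESeq. The SE is the absolute log2 fold change over the square root of F, and means are given ± SD. The alternatives included DESeq2 1.42.0 and, on the deposited FPKM, limma 3.58.1 after adding 1 or 0.1 and taking log2. Ratios of counts with 0.5 added were compared by exact permutation (scipy 1.17.1). The model fit was tested on simulated data. Each pair of same-group samples differed by 1.56 to 1.98 in chi-square per degree of freedom, so none was a copy. Replicate numbers were not taken to pair the samples. The precision depends on the counts behind each gene and on the spread between replicates, and total counts ranged from 18147028 to 24976517.

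The members and lists were chosen with earlier results of these data known. All 36 members are named, and of other lists the genes that passed, at most 4 a list in order of p, with HIF1A as a gene a result turns on; some items of these lists are not reported here. All 36 members' longest coding transcripts came from GENCODE 29, and promoters from RefSeq for 32.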

Additional observations from a re-analysis of the deposited data

How the results depend on the processing

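No member rose past the threshold in any of the 17 alternatives, and no called member turned direction. The number that fell was 10 or 11 under other scalings, 12 without a filter on low counts, 11 with at least 10 counts in every sample, 10 with DESeq2 and 8 with limma on filtered FPKM, while limma on log2(FPKM + 1) without a filter gave 2. Leaving out each replicate in turn gave 9 to 11. Of the 11, GPD1L and GPI passed in every alternative, and the others lost the call in at least 1; GAPDH, LDHA, PFKFB3, PFKL, PGM1 and PKM lost it only with unfiltered limma. Over all genes 2111 passed, against 1087 with DESeq2, 1363 and 1353 with limma at pseudocounts of 1 and 0.1, 585 with unfiltered limma and 1551 to 1747 without 1 replicate; the cause was not tested. With total counts as the only scaling 60.0% of the calls over all genes were higher, against 46.3% with TMM, and 10 members still fell and 0 rose.

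Signs turned only for members and ratios that did not pass. LDHB was 0.0057 with upper quartile scaling, 0.017 with total counts, 0.00047 with at least 10 counts in every sample and 0.017 with each limma fit. PDHA1 was 0.0080 with total counts and 0.0081 with each limma fit, and RPIA -0.0045 without a filter. Without 1 replicate the log2 fold change ranged from -0.024 to 0.026 for LDHB, -0.025 to 0.0060 for PDHA1, -0.029 to 0.054 for RPIA, -0.012 to 0.043 for SLC2A1, -0.035 to 0.0099 for PGLS and -0.024 to 0.031 for TALDO1. The same ranges for the log2 ratios were -0.061 to 0.012 for HK2 to HK1, -0.014 to 0.038 for ENO2 to ENO1, -0.14 to 0.86 for SLC2A3 to SLC2A1 and -0.72 to 0.052 for GPD1L to GPD1.

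Deviations of samples with the same replicate number correlated at 0.05, 0.10 and 0.07, and each sample correlated best with its own number, which is a hint from the data and not from the design. With the number as a replicate block, 16 members fell, 0 rose and 2727 genes passed; the added calls were PGAM1 (adjusted p = 0.0014), ALDOA (0.00644), ENO1 (0.0246), PGK1 (0.0347) and PDK1 (0.0474).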
